A study of Mus musculus with 6 samples.

Results

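Cardiac calcium handling was described through 10 genes whose products move calcium in and out of the heart muscle cell and its internal store. They were Ryr2, Atp2a2, Pln, Sln, Casq2, Slc8a1, Cacna1c, Hrc, Trdn and Jph2, chosen by name and function out of the 36047 genes to which the deposited transcripts could be joined. Of these 10 genes, 9 passed the filter on low counts, which 20094 genes passed in all, and Sln did not. Libraries were made from the infarct area of hearts of C57BL6 mice aged 12 weeks, taken 48 h after ischemia/reperfusion (I/R), a temporary closure of a coronary artery followed by restored flow. In 3 mice the agent was LGK-974, a small molecule that inhibits Porcupine, the enzyme that lipidates Wnt proteins before their secretion. The other 3 mice received the vehicle dimethyl sulfoxide (DMSO). The study's methods describe female animals, closure of the left anterior descending artery and oral gavage for both groups. All 6 hearts were injured, and uninjured hearts were not analysed here.

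A heartbeat begins when the membrane depolarizes and the L-type channel, whose pore is encoded by Cacna1c, lets in calcium. That calcium opens the ryanodine receptor RYR2 in the facing membrane of the sarcoplasmic reticulum, and the store empties into the cytosol. The pump SERCA2 (Atp2a2) takes calcium back up, restrained by the small membrane proteins phospholamban (Pln) and sarcolipin (Sln), while the sodium-calcium exchanger NCX1 (Slc8a1) removes it from the cell. Calsequestrin (Casq2) and the histidine-rich calcium-binding protein (Hrc) buffer calcium in the store, triadin (Trdn) ties calsequestrin to the release channel, and junctophilin 2 (Jph2) holds both membranes together at the dyad.

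Coding sequences are given for the pump and its small partners, since the isoform of the pump and the contrast between Pln and Sln recur in the results. Atp2a2 lies on the minus strand of chromosome 5 of GRCm38, from 122453513 to 122502225. Its transcripts Atp2a2-202 and Atp2a2-201 share their coding sequence up to base 2983 and then differ. Atp2a2-202 ends after 14 more bases, at 122454291 to 122454304, and has the end of the muscle form SERCA2a with 998 codons. Atp2a2-201 ends after 152 more bases, at 122457151 to 122457302, and has the end of the widely expressed form SERCA2b with 1044 codons. The differing coding bases are in capitals below.
Atp2a2-202: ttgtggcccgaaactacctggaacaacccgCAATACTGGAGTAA
Atp2a2-201: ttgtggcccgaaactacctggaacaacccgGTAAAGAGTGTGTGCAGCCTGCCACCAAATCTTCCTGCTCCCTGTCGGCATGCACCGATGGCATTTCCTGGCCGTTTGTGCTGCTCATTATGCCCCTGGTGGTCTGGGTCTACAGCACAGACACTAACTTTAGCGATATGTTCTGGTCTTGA
Pln lies on the plus strand of chromosome 10, from 53337667 to 53345987, and codes for 52 amino acids. The capitals in its coding sequence mark codons 16 and 17, the serine and the threonine whose phosphorylation relieves the pump. Sln lies on the plus strand of chromosome 9, from 53850164 to 53854560, and codes for 31 amino acids.
Pln-201: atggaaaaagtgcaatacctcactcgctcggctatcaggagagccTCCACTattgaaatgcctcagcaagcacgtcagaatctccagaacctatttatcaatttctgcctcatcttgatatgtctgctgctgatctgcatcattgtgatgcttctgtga
Sln-201: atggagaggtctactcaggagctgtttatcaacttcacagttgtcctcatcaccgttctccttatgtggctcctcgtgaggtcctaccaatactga

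Promoter windows of 250 bases before the start site were found in RefSeq (GRCm38.p6) for 7 of the 10 genes. Those of Jph2, Ryr2 and Hrc are given because Jph2 had the highest fitted fold change of the 9 genes, Hrc the lowest, and Ryr2 was the partner against which Jph2 was set. Each reads 5′ to 3′ on the strand of its gene, and the capitals mark the E-box CAGCTG, searched on both strands and identical on both.
Jph2, chr2:163397994-163398243, minus strand: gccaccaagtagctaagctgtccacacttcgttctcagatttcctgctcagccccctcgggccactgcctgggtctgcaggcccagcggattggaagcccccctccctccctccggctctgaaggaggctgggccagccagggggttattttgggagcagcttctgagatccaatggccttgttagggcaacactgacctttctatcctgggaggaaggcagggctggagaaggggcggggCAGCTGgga
Ryr2, chr13:12106946-12107195, minus strand: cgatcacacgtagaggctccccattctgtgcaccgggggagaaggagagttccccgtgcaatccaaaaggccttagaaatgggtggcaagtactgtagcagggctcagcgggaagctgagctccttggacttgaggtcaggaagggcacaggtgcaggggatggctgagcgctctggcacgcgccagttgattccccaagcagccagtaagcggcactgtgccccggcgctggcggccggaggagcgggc
Hrc, chr7:45335019-45335268, plus strand: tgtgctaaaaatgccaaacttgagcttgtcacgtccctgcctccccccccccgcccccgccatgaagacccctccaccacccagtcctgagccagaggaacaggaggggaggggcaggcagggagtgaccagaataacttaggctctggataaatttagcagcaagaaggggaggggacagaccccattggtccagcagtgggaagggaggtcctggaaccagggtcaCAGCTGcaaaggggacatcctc
CAGCTG occurred in the windows of Jph2 and Hrc, which were 2 of the 7 windows, and in 13% of the 32851 promoter windows of the same length. The other motifs searched were AGATAA, in 2 of the 7 windows and 9.99% of all windows, TATAAA, in 1 and 12.4%, CATTCC, in 0 and 12.6%, the MEF2 motif, in 1 and 1.69%, and the CArG box, in 0 and 1.47%. Matches of TATAAA and of the MEF2 motif can share letters, and a match is a stretch of letters, not a measured binding site.

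The libraries held 41579787 to 80398211 estimated counts, of which genes encoded in mitochondria took 28.2 to 53.7%. Values are given as CPM, counts relative to the library size as scaled by the TMM method, for comparisons between libraries, and as TPM for comparisons between genes, because TPM, a value scaled to the length of each transcript and to the sum of the library, allows such comparisons. Libraries differed in how many counts fell on 1501 genes of odorant, vomeronasal and taste receptor families, taken as a reading of background. DMSO replicate 1 had a count on 99.3% of these genes with a median of 97.6 counts, and the other libraries on 59.8 to 88.3% with medians of 8.12 to 34.0. LGK-974 replicate 3 stood apart by its fibroblast markers, with a summed level of 6009 CPM against 1713 to 3892 in the other libraries. The cardiomyocyte markers Ttn, Myh6 and Tnnt2 were abundant, at means of 26797, 11713 and 5045 CPM, as the heart label has it. Each library came from its own mouse, per the study's account of 3 animals per group.

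Per length, the pump and its inhibitor stood at the top of the calcium handling genes and sarcolipin at the bottom. The mean level over the 6 libraries was 816 TPM for Atp2a2 (SD 275), 567 TPM for Pln (SD 177), 263 TPM for Slc8a1 (SD 59.6), 242 TPM for Trdn (SD 39.7) and 184 TPM for Ryr2 (SD 46.8). It was 128 TPM for Hrc (SD 43.7), 106 TPM for Casq2 (SD 30.8), 52.9 TPM for Cacna1c (SD 17.9), 27.0 TPM for Jph2 (SD 14.4) and 0.078 TPM for Sln (SD 0.096). Neighbours in this order kept it in 6 of 6 libraries except for Atp2a2 over Pln (5 of 6), Slc8a1 over Trdn (4 of 6) and Hrc over Casq2 (4 of 6). The orders of Slc8a1 with Trdn and of Hrc with Casq2 were thus within the spread between libraries. Those of Atp2a2 over Pln, Ryr2 over Hrc and Cacna1c over Jph2 depend on which transcript models are counted. Models not classed as protein-coding took 41.1% of the TPM of Atp2a2 on average and 63.2% in DMSO replicate 1. They took 28.4% of the TPM of Ryr2 and 52.5% of that of Cacna1c on average, and Pln, Hrc and Jph2 had no such models. Without them, Atp2a2 was below Pln in most libraries. Ryr2 was then below Hrc, and Cacna1c below Jph2, in some libraries.

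None of the 9 calcium handling genes tested passed the test for a difference between LGK-974 and DMSO, and among all 20094 genes edgeR called 0 (0%) as well. In 0 of the 9 genes were the groups apart without overlap, against 18% of all genes. Fitted values were lower with LGK-974 for 8 of the 9 genes, where 59.5% of all genes had lower values, and for 5 of the 9 when libraries were scaled by their totals alone. The widest fitted differences were those of Hrc, at about 0.639 times the DMSO level, and Pln, at 0.728 times, and both had intervals that included no change. The results follow the path of calcium, from release and storage to uptake, removal and entry.

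**Figure D1:**
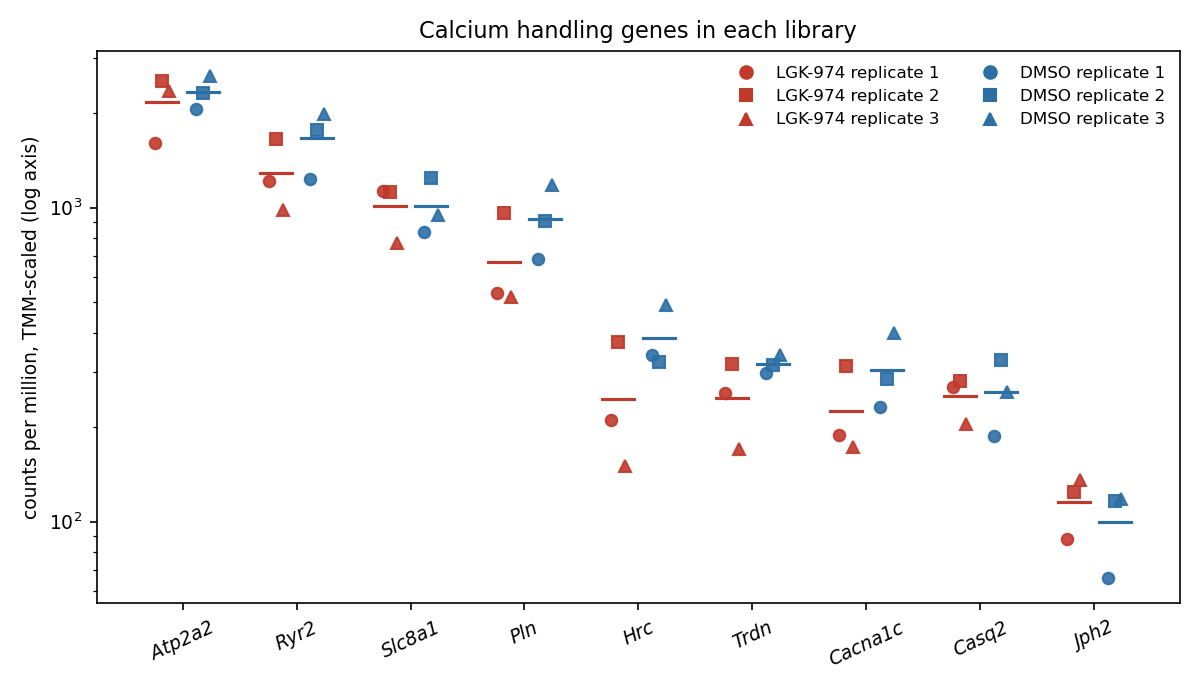
The plot shows CPM on a log axis for the 9 calcium handling genes that passed the filter, ordered by mean CPM, with a point for each library and a line for each group's mean (n = 3 libraries per group). The groups overlap in every gene, and the triangles show DMSO replicate 3 highest in 6 genes and LGK-974 replicate 3 lowest in 6.

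Ryr2, the release channel, was measured at 1212, 1660 and 985 CPM in LGK-974 replicates 1, 2 and 3 and at 1230, 1770 and 1983 CPM in DMSO replicates 1, 2 and 3. Only LGK-974 replicate 2 was well inside the DMSO range, and DMSO replicate 1 was close to LGK-974 replicate 1. The log2 fold change was −0.37 (SE 0.308, adjusted p = 0.548 by the quasi-likelihood test of edgeR, with Benjamini-Hochberg adjustment over all genes), with −0.54 without LGK-974 replicate 2 and −0.12 without DMSO replicate 3. Trdn, the anchor between calsequestrin and the channel, was measured at 257, 317 and 170 CPM with LGK-974 and at 297, 316 and 340 CPM with DMSO. Its DMSO libraries lay close together, and LGK-974 replicate 3 was far below them in CPM. In TPM that library, at 253, was within the DMSO range of 190 to 297. The log2 fold change of Trdn was −0.35 (SE 0.252, edgeR adjusted p = 0.491) and moved to −0.08 without LGK-974 replicate 3.

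The buffers of the store gave different values. Hrc was measured at 211, 375 and 150 CPM with LGK-974 and at 338, 322 and 491 CPM with DMSO. LGK-974 replicates 1 and 3 were below all DMSO libraries, whereas replicate 2 was above 2 of them. The log2 fold change of Hrc was −0.65 (SE 0.356, 95% interval −1.47 to 0.18, edgeR adjusted p = 0.407). Leaving out single libraries gave −1.03 without LGK-974 replicate 2 and −0.31 without DMSO replicate 3. Casq2, calsequestrin, was measured at 268, 281 and 205 CPM with LGK-974 and at 188, 326 and 259 CPM with DMSO, so that both ends of the range were DMSO libraries. Its log2 fold change was −0.04 (SE 0.252, 95% interval −0.62 to 0.55, edgeR adjusted p = 0.953).

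For uptake into the store, Atp2a2 was measured at 1609, 2531 and 2354 CPM with LGK-974 and at 2070, 2322 and 2629 CPM with DMSO. LGK-974 replicate 1 was the lowest library, and the remaining libraries were interleaved. The log2 fold change was −0.11 (SE 0.286, 95% interval −0.77 to 0.55, edgeR adjusted p = 0.859). Pln, the inhibitor of the pump, was measured at 533, 964 and 519 CPM with LGK-974 and at 685, 906 and 1178 CPM with DMSO. As for Hrc, LGK-974 replicates 1 and 3 were below the DMSO libraries and replicate 2 was among them. The log2 fold change of Pln was −0.46 (SE 0.334, 95% interval −1.23 to 0.32, edgeR adjusted p = 0.502), with −0.76 without LGK-974 replicate 2 and −0.14 without DMSO replicate 3. Exons of Pln share bases with Cep85l and Gm47644 on the other strand, and the larger of these overlaps is 1644 bases. Because the strand setting of the counting is not stated, reads there cannot be assigned to either strand.

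Sln, the other small inhibitor and in the heart mainly an atrial gene, was at the level of background. It had 10, 0 and 0 estimated counts with LGK-974 and 9, 14 and 0 with DMSO, against at least 2624 counts for each of the other 9 genes in each library. In 6 of 6 libraries its count was below the median of the receptor families given above. A count of 0 allowed up to 0.056 and 0.047 CPM in LGK-974 replicates 2 and 3 and 0.074 CPM in DMSO replicate 3 (3 counts per library, counting error only). With both groups at or near this limit, no fold change is given. Of the 5 atrial markers, Myl7 (0 to 17 counts), Bmp10 (0 to 60 counts) and Myl4 (14 to 99 counts) were also low, Dkk3 had 94 to 351 counts, and Nppa, which the injured ventricle also expresses, had 18273 to 123426. Dkk3 (log2 fold change 0.81) and Nppa (1.04) were higher with LGK-974 without overlap, as were 10.7% of all genes, each of them with an edgeR adjusted p of 0.368. Myl4 (0.10) overlapped, and Myl7 and Bmp10 did not pass the filter. The summed level of the list was 1130 to 1459 CPM with LGK-974 and 464 to 727 CPM with DMSO. Nearly all of it was Nppa, at 1126 to 1454 CPM with LGK-974 and 459 to 723 CPM with DMSO.

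For removal from the cell, Slc8a1 was measured at 1134, 1122 and 771 CPM with LGK-974 and at 835, 1247 and 950 CPM with DMSO. The lowest library had received LGK-974 and the highest DMSO, and the group means were 1009 and 1011 CPM. Its log2 fold change was −0.00 (SE 0.272, 95% interval −0.63 to 0.63, edgeR adjusted p = 0.998). Exons of Slc8a1 share bases with AC122399.1 and Gm11096 on the other strand, and the larger of these overlaps is 296 bases.

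For entry, Cacna1c was measured at 188, 314 and 173 CPM with LGK-974 and at 232, 285 and 398 CPM with DMSO. LGK-974 replicates 1 and 3 were below the DMSO libraries and replicate 2 was above 2 of them, as for Hrc. The log2 fold change of Cacna1c was −0.44 (SE 0.306, 95% interval −1.15 to 0.27, edgeR adjusted p = 0.485), with −0.71 without LGK-974 replicate 2 and −0.09 without DMSO replicate 3. Jph2, which shapes the dyad, was measured at 88.1, 124 and 135 CPM with LGK-974 and at 66.0, 116 and 118 CPM with DMSO. It was the only gene of the 9 with a fitted value above 0 and the only one in which LGK-974 replicate 3 was the highest library. Its log2 fold change was 0.21 (SE 0.273, 95% interval −0.42 to 0.85, edgeR adjusted p = 0.701), and it was 0.00 without DMSO replicate 1, the lowest library.

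**Figure D2:**
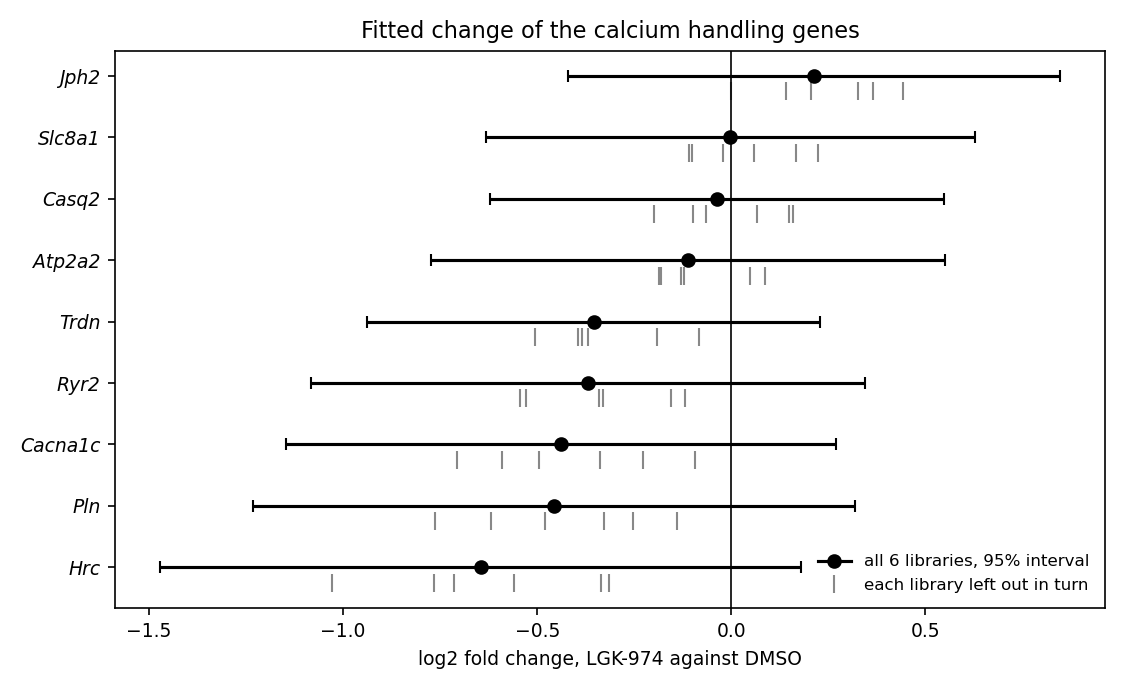
The plot shows the fitted log2 fold change (LGK-974 over DMSO) for each of the 9 genes (n = 3 libraries per group), with its 95% interval as a bar and the 6 fits that each leave out a library as ticks. All 9 intervals include 0, from the lowest bound of −1.47 (Hrc) to the highest of 0.85 (Jph2), and the ticks of Atp2a2, Casq2 and Slc8a1 lie on both sides of 0; with libraries scaled by their totals these 3 genes have values above 0.

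Across the 9 genes, edgeR called 0 at an adjusted p under 0.05 and found 0 with an unadjusted p under 0.05, which 2699 genes (13.4%) had among all those tested. DESeq2, run without the filter on low counts, called 0 of the 9 and 289 (1.23%) of the 23567 genes to which it gave an adjusted p. Limma-voom called 0 of the 9 and 0 of the 20094 genes past the filter. The median log2 fold change was −0.35 over the 9 genes and −0.13 over all genes tested. Over the 9 genes it was −0.51 without LGK-974 replicate 2, −0.12 without LGK-974 replicate 3 and −0.09 without DMSO replicate 3. When the libraries were scaled by their totals the median over all genes moved to 0.08. The standard errors of the 9 genes ranged from 0.252 to 0.356, so that the intervals reached down to −1.47 for Hrc, −1.23 for Pln and −1.15 for Cacna1c and up to 0.85 for Jph2, 0.63 for Slc8a1 and 0.55 for Atp2a2 and Casq2.

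Single libraries were high or low for several of the 9 genes at once. DMSO replicate 3 was the highest library for 6 genes and DMSO replicate 2 for 2, and LGK-974 replicate 3 was the lowest for 6 and DMSO replicate 1 for 2. The mean of their log2 CPM was 8.66, 9.14 and 8.51 in LGK-974 replicates 1, 2 and 3 and 8.72, 9.12 and 9.25 in DMSO replicates 1, 2 and 3. Without DMSO replicate 3, fitted values were lower for 5 of the 9 genes. These orders depend on the TMM scaling, whose factor was 1.40 for LGK-974 replicate 3 and 0.816 to 1.06 for the other libraries. In TPM, which carries no TMM factor, LGK-974 replicate 3 was not the lowest library for any of the 9 genes.

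Markers of the cell types in the tissue are given beside these values. The 15 cardiomyocyte markers, none of them among the 9 genes, had a median log2 fold change of −0.42 with 13 lower and 2 higher (12 lower with library totals), and their summed level overlapped between groups at 40637 to 58008 CPM with LGK-974 and 47061 to 64724 CPM with DMSO. As a description over 6 libraries, which share their scaling, the correlation of that sum with the gene was 0.953 for Ryr2, 0.946 for Cacna1c, 0.903 for Trdn, 0.896 for Pln, 0.866 for Jph2, 0.806 for Casq2, 0.713 for Slc8a1, 0.700 for Atp2a2 and 0.634 for Hrc. The 11 leukocyte markers all had higher values with LGK-974, 10 of them without overlap (10.7% of all genes), and their sum was 481 to 622 CPM against 210 to 303 CPM. The 9 fibroblast markers were also all higher, 5 of them without overlap, with a sum of 3473 to 6009 CPM against 1713 to 2518 CPM. Summed levels of endothelial markers (645 to 697 against 583 to 802 CPM), smooth muscle markers (206 to 509 against 202 to 351 CPM) and skeletal muscle markers (17.7 to 30.2 against 11.4 to 19.0 CPM) overlapped. The part of these cell types in the values of the calcium handling genes was not tested. In whole tissue, differences in the number of cells of any type and in the RNA per cell cannot be told apart.

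Set against the cardiomyocyte markers within each library, Jph2 was higher with LGK-974 without overlap, by a difference that the test could not call, and the other 8 genes overlapped. Each gene's TPM was divided by the summed TPM of the 15 markers, which ranged from 12049 to 22115. Jph2 was 0.147, 0.154 and 0.245% of that sum with LGK-974 and 0.0893, 0.143 and 0.126% with DMSO. All 3 LGK-974 libraries were above all 3 DMSO libraries, by a narrow margin between LGK-974 replicate 1 and DMSO replicate 2. The difference in log2 units was 0.60 (exact two-sided permutation test, p = 0.1, adjusted p = 0.675 over the 9 genes), and 0.1 is the smallest p that 3 against 3 libraries can give. It was 0.36 without LGK-974 replicate 3, the highest library, and 0.40 without DMSO replicate 1, the lowest. The differences of the other genes ran from −0.37 for Hrc and −0.23 for Pln to 0.25 for Slc8a1 and 0.30 for Casq2 (exact permutation p = 0.3, 0.3, 0.4 and 0.3). Those of Ryr2 (−0.04), Cacna1c (−0.05), Trdn (−0.06) and Atp2a2 (0.10) were smaller still.

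**Figure D3:**
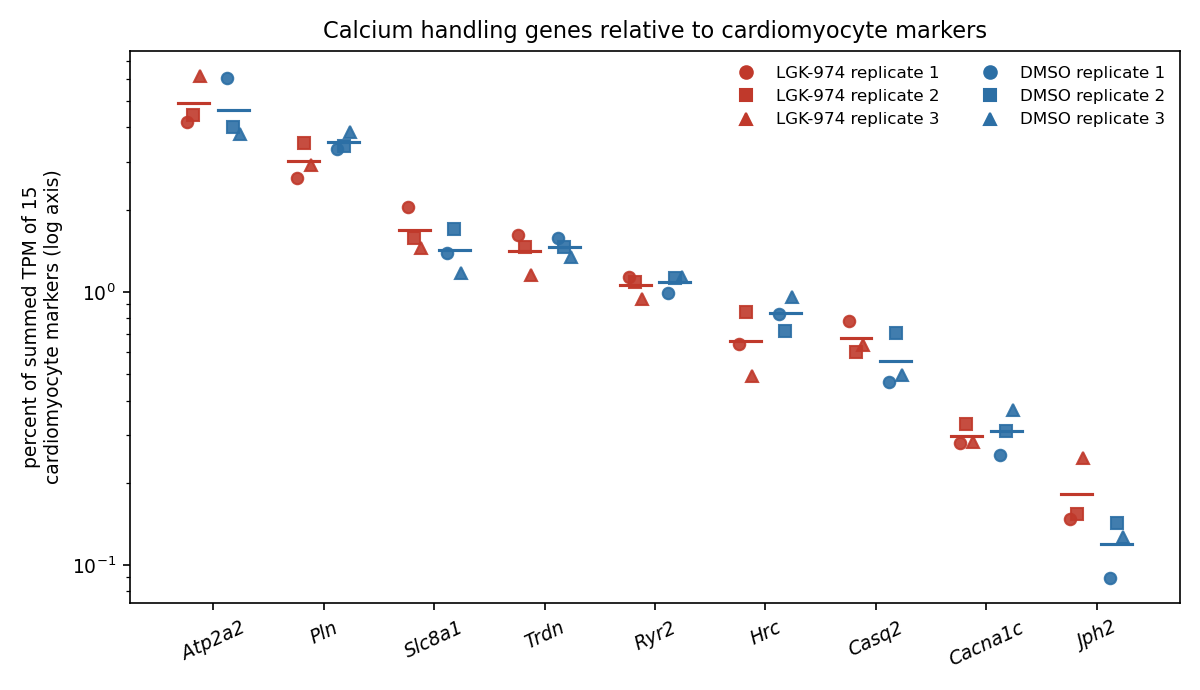
The plot shows each gene's TPM as a percent of the summed TPM of 15 cardiomyocyte markers, on a log axis, with a point for each library and a line for each group's mean (n = 3 libraries per group). Of the 9 genes, only Jph2 has all 3 LGK-974 points (0.147 to 0.245%) above all 3 DMSO points (0.0893 to 0.143%).

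Ratios between partners do not depend on the markers. The ratio of Jph2 to Ryr2, the tether to the channel it faces, was 0.130, 0.141 and 0.260 in TPM with LGK-974 and 0.0903, 0.126 and 0.111 with DMSO. With all models counted the groups did not overlap, and the difference of 0.63 in log2 units had an exact two-sided permutation p of 0.1 and an adjusted p of 0.467 over 7 ratios. Without LGK-974 replicate 3, the library with the ratio of 0.260, the difference was 0.32. Models not classed as protein-coding took 27.1% of the TPM of Ryr2 in LGK-974 replicate 1 and 31.1% in DMSO replicate 2, and Jph2 had no such models. Leaving these models out puts LGK-974 replicate 1 below DMSO replicate 2, so that the groups overlap. The ratio of Pln to Atp2a2, the inhibitor to its pump, was 0.625, 0.793 and 0.474 with LGK-974 and 0.549, 0.849 and 1.01 with DMSO. It so ranged more within the DMSO group than between the groups (log2 difference −0.34, exact permutation p = 0.4). This ratio counts all models of Atp2a2, including those not classed as protein-coding. The ratio of Hrc to Casq2, both buffers of the store, was 0.824, 1.39 and 0.770 with LGK-974 and 1.78, 1.02 and 1.94 with DMSO, with overlap and a log2 difference of −0.66 (exact permutation p = 0.2). Casq2 to Ryr2 differed by 0.34 (exact permutation p = 0.2) and Slc8a1 to Atp2a2 by 0.15 (exact permutation p = 0.7). Trdn to Ryr2 and Cacna1c to Ryr2 differed by −0.02 and −0.01 (exact permutation p = 1 for both).

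The files give values for 76 transcript models of the 10 genes, of which 57 passed the filter on low counts. EdgeR called 0 of the 57, as it called 0 of all 58618 transcripts tested (0%), with 0.853 as the lowest adjusted p among the 57. At an unadjusted p under 0.05 stood 3 transcripts, all lower with LGK-974, against 5.28% of all transcripts, and limma-voom found 6 and called 0. Fitted values were lower for 48 of the 57, against 52.5% of all transcripts, and in 9 the groups did not overlap, against 14.2%. The 3 transcripts, named after their values were seen, were Pln-205 (log2 fold change −0.75, SE 0.274), Ryr2-205 (−0.67, SE 0.259) and Cacna1c-209 (−1.33, SE 0.454), each with an edgeR adjusted p of 0.853. Pln-205 is a model of 531 bases with the whole coding sequence, measured at 34.9, 64.4 and 41.0 CPM with LGK-974 and at 87.6, 68.3 and 80.1 CPM with DMSO, so that the groups did not overlap. Ryr2-205 is a retained intron without a coding sequence, and Cacna1c-209 held 0.972% of the gene's TPM.

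For the pump, the muscle form prevailed in every library. Atp2a2-202 (SERCA2a) made up 84.6, 83.3 and 75.0% of the summed TPM of Atp2a2-202 and Atp2a2-201 (SERCA2b) with LGK-974 and 93.0, 77.4 and 82.5% with DMSO. The groups overlapped, the highest share was that of DMSO replicate 1, and the difference of −3.32 percentage points had an exact two-sided permutation p of 0.6. The short model Atp2a2-205, of 615 bases and without a coding sequence, took 37.9, 29.8 and 33.5% of the gene's TPM with LGK-974 and 58.7, 30.0 and 25.1% with DMSO. It was highest in DMSO replicate 1, the library with the most background. Since a short model weighs heavily in TPM, the gene's level of 816 TPM depends on it, and in CPM it was only 91.5 to 269. Models without a coding sequence also took 52.5% of the TPM of Cacna1c and 28.4% of that of Ryr2 on average.

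**Figure D4:**
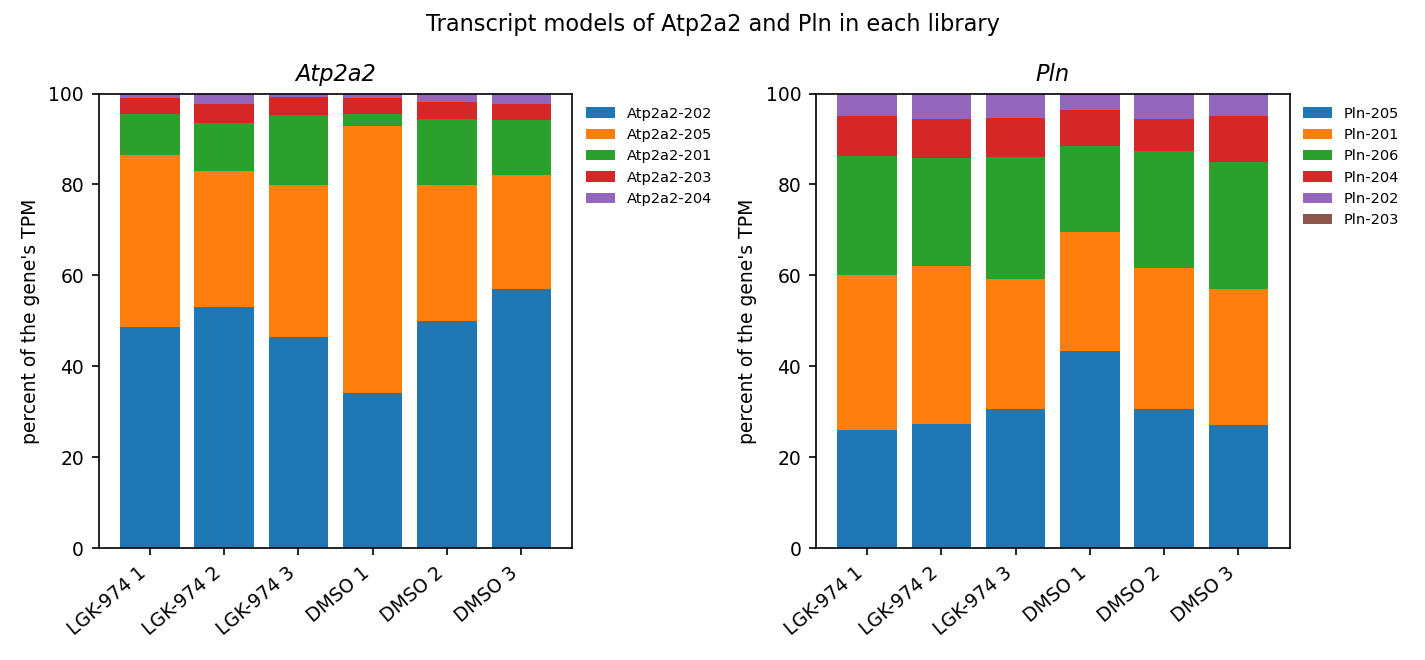
The stacked bars show the percent of the gene's TPM that each transcript model took in each of the 6 libraries, for Atp2a2 on the left and Pln on the right (colours are assigned per panel). Atp2a2-202, the lowest segment on the left, takes 34.2 to 56.9%, and the segment of Atp2a2-205 above it is tallest in DMSO replicate 1 at 58.7%.

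For 8 of the 9 genes, the share that the leading transcript, the model with the highest mean TPM, took of its gene overlapped between the groups. This share differed by 0.68 percentage points for Ryr2-201, by 2.36 for Atp2a2-202, by 3.48 for Pln-201 and by 4.23 for Trdn-206. It differed by −4.92 for Slc8a1-205, by 1.19 for Cacna1c-218, a model of 954 bases without a coding sequence, by −0.07 for Hrc-201 and by 0.97 for Jph2-201. Casq2-201 was the exception, at 97.1, 97.3 and 98.6% of the gene's TPM with LGK-974 and 90.7, 95.9 and 94.5% with DMSO. The groups did not overlap, and the difference of 3.98 percentage points had an exact permutation p of 0.1, the smallest that 3 against 3 libraries allow, and an adjusted p of 0.9 over 9 shares. Without DMSO replicate 1, the lowest share, the difference was 2.46 points.

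Beyond the 10 genes, the calcium pathway was followed through 78 further genes, of which 77 were tested and Strit1 was not matched to a gene name. No gene of this wider list was called by edgeR. Fitted values were higher for 37 and lower for 40, with a median log2 fold change of −0.06 under TMM and 0.13 with libraries scaled by their totals. At an unadjusted p under 0.05 stood 6 genes that were higher (6.26% of all genes) and 4 that were lower (7.18%), and limma-voom called 0. The groups did not overlap in 8 genes that were higher (10.7% of all genes) and 6 that were lower (7.27%). DESeq2 called Mcub (adjusted p = 0.038) and Tcap (adjusted p = 0.00999).

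**Figure D5:**
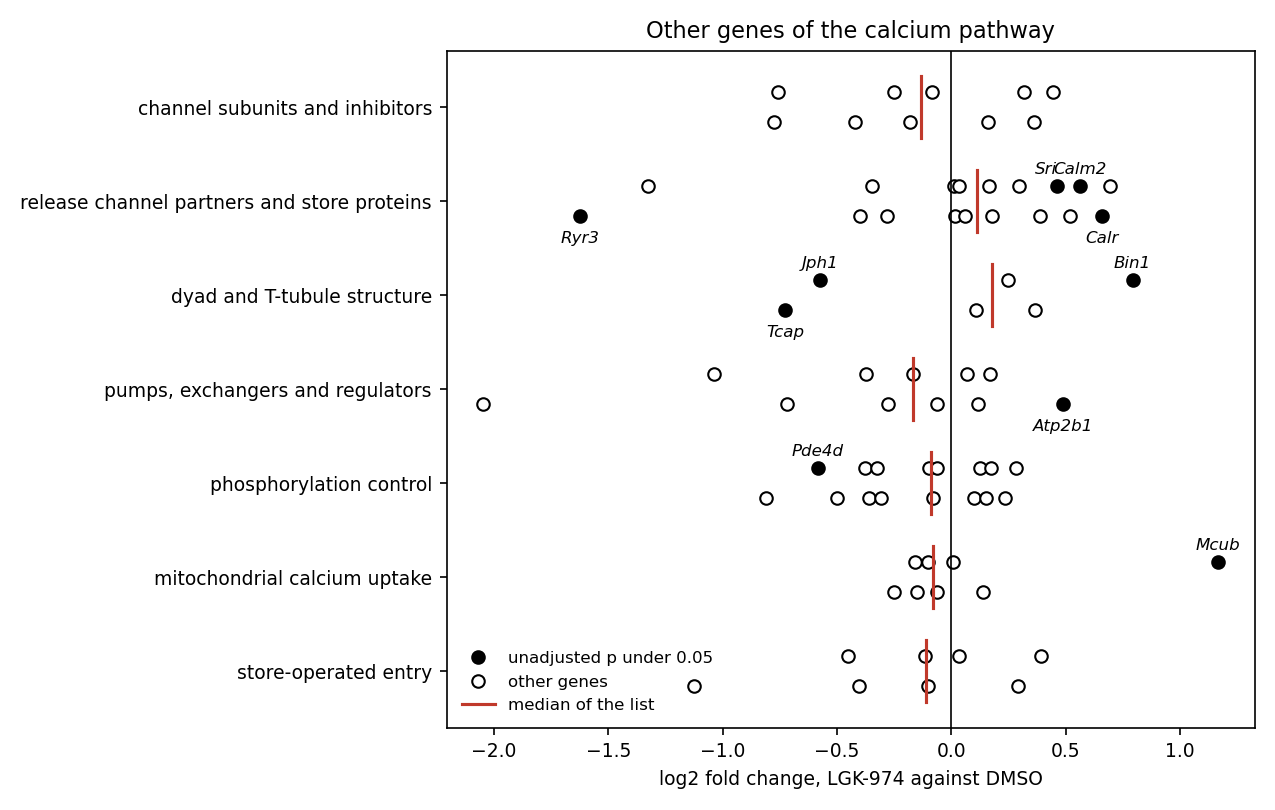
The plot shows the fitted log2 fold change (LGK-974 over DMSO) for 77 further genes of the calcium pathway in 7 groups of function, with the genes at an unadjusted p under 0.05 filled and named and each group's median as a line. The medians lie between −0.17 and 0.18 under TMM, and Mcub (1.17) lies farthest to the right and Slc8a3 (−2.05, an open point) farthest to the left.

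Among the structural genes of the dyad and the T-tubules, 1 of 6 was higher and 2 were lower at an unadjusted p under 0.05. Tcap, telethonin, a titin cap that also meets the T-tubule, was measured at 154, 173 and 164 CPM with LGK-974 and at 252, 264 and 296 CPM with DMSO. The libraries of each group lay close together without overlap, with a log2 fold change of −0.73 (SE 0.171, edgeR adjusted p = 0.368). Jph1, the junctophilin best known from skeletal muscle, was measured at 17.9, 19.6 and 11.7 CPM with LGK-974 and at 24.9, 20.1 and 28.3 CPM with DMSO (log2 fold change −0.57, SE 0.230, edgeR adjusted p = 0.368), with a narrow gap between the groups and a value of −0.31 without LGK-974 replicate 3. Its fitted value was on the other side of 0 from that of Jph2. Bin1, which bends the T-tubule membrane, was measured at 18.5, 17.7 and 23.9 CPM with LGK-974 and at 8.82, 14.8 and 11.1 CPM with DMSO, also without overlap (log2 fold change 0.79, SE 0.229, edgeR adjusted p = 0.368).

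Of 18 partners of the release channel and store proteins, 3 were higher and 1 was lower at an unadjusted p under 0.05. Calreticulin (Calr), a buffer of the endoplasmic reticulum in many cell types, was measured at 340, 294 and 423 CPM with LGK-974 and at 185, 250 and 233 CPM with DMSO (log2 fold change 0.66, SE 0.220). Calmodulin 2 (Calm2), the calcium sensor, had a log2 fold change of 0.56 (SE 0.156) and sorcin (Sri), which binds the release channel, one of 0.46 (SE 0.161). In all 3 the groups did not overlap, and each had an edgeR adjusted p of 0.368. Calr is made by leukocytes and fibroblasts as well, whose markers were higher in the same libraries, and their part in these values was not tested. Ryr3, a ryanodine receptor of other tissues, had a log2 fold change of −1.62 (SE 0.600), with 11.0 CPM in DMSO replicate 1 and 1.10 to 4.49 CPM in the other libraries, and without DMSO replicate 1 it was −0.78.

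Among 8 genes of mitochondrial calcium uptake, Mcub, which encodes a subunit that lowers uptake through the uniporter, was measured at 7.66, 6.89 and 7.59 CPM with LGK-974 and at 2.51, 3.91 and 3.44 CPM with DMSO. The groups were far apart, and the log2 fold change was 1.17 (SE 0.244, edgeR adjusted p = 0.368). Markers of leukocytes and fibroblasts were also higher with LGK-974, and the part of these cell types in the values of Mcub was not tested. The pore Mcu itself had a log2 fold change of 0.00 (SE 0.161) and Mcur1 one of −0.25 (SE 0.178). Of 11 pumps, exchangers and regulators tested, only the plasma membrane pump Atp2b1 had an unadjusted p under 0.05, at 164, 167 and 170 CPM with LGK-974 and 111, 119 and 127 CPM with DMSO (log2 fold change 0.49, SE 0.155, edgeR adjusted p = 0.368). Slc8a3, an exchanger related to Slc8a1, had a log2 fold change of −2.05 (SE 0.967) with 2.26 CPM in DMSO replicate 1, and −1.09 without that library. Atp2b4 was −0.37 (SE 0.214), and −0.10 without DMSO replicate 1.

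Of 16 genes of phosphorylation control, Pde4d, a phosphodiesterase that breaks down cyclic AMP near the release channel, was lower at an unadjusted p under 0.05 (log2 fold change −0.59, SE 0.250, edgeR adjusted p = 0.368), with overlap between the groups and a value of −0.39 without LGK-974 replicate 3. Pde3a (−0.50, SE 0.243, and −0.25 without that library) and Ppp1r1a (−0.81, SE 0.496) came next, and the other 13 had larger p-values. None of the 10 subunits and inhibitors of calcium channels had an unadjusted p under 0.05, and those with the smallest p were the T-type channels Cacna1g (−0.42, SE 0.224) and Cacna1h (−0.76, SE 0.472, and −0.40 without LGK-974 replicate 3) and the L-type channel Cacna1d (0.44, SE 0.280). Of 8 genes of store-operated entry, 0 had an unadjusted p under 0.05, with Trpc1 (−0.41, SE 0.204, and −0.26 without LGK-974 replicate 3) and Trpc6 (−1.12, SE 0.607) as the smallest. Trpc6 was highest in DMSO replicate 1 and was −0.12 without it.

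The genes whose profile was most like that of the calcium handling genes were sought over all tested genes outside them and the cardiomyocyte markers, by Pearson correlation over the 6 libraries with the mean of the 9 standardized log2 CPM profiles. That mean was −0.57, 0.62 and −0.92 in LGK-974 replicates 1, 2 and 3 and −0.55, 0.61 and 0.81 in DMSO replicates 1, 2 and 3. The 5 highest were Ndufa3, a subunit of respiratory complex I (r = 0.999), Nmnat3, which makes mitochondrial NAD (r = 0.993), Eno3, the muscle enolase (r = 0.992), the nucleoside diphosphate kinase Nme2 (r = 0.992) and Cpped1 (r = 0.992). Ndufa3 was measured at 72.4, 110, 63.7, 72.6, 112 and 116 CPM in the same order of libraries, high in the libraries where Ryr2 and Pln were high. Such values are the top of 6-point correlations over all genes tested, share library and scaling, and are given as a description.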

How the data were processed

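RNA of the infarct area was sequenced for 3 LGK-974 and 3 DMSO mice. Per the study's methods, ribosomal RNA was depleted, a capture kit was used, and Kallisto assigned reads to Ensembl transcripts of GRCm38; its version, the strand setting and the annotation release are not given in the sources used here. The authors deposited estimated counts and TPM values for 118489 transcripts per library. Reads shared by transcripts are divided between them by estimation, so that values of short and overlapping models are uncertain. Capture with probes leaves levels of different genes dependent on the probes.

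Transcripts were joined to GENCODE genes of GRCm38 (98.59% matched), and the estimated counts of each gene were added up and rounded. Genes reaching 10 counts in 3 or more libraries were tested with edgeR 4.0.16 (R 4.3.3; TMM, quasi-likelihood, Benjamini-Hochberg threshold 0.05, no covariate), with depths of 41579787 to 80398211 counts. For the 9 calcium handling genes tested, each with at least 2624 counts per library, counting error was small beside the spread between libraries. Genes with few counts, such as Sln, are excepted. The same fit was made on transcripts. Ratios and shares of TPM were compared with exact two-sided permutation tests. Sequences came from GENCODE transcripts and RefSeq promoters. Alternatives were DESeq2 1.42.0, limma-voom (limma 3.58.1), other scalings, filters and gene sets, counts scaled from TPM, a replicate block and leaving out each library. The tests were tested on simulated data. Python 3.11.15, pandas 2.3.3, NumPy 2.4.6 and matplotlib 3.10.9 served for tables and figures.

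The 10 genes, the wider list of 78 genes and the marker lists were chosen with earlier results of these data known. Genes were named by rule: the 10 genes, up to 3 genes with the smallest p of each functional group, up to 3 markers per cell type by CPM (mostly given as sums here), and the 5 genes most alike in profile. Some genes that this rule would name are not reported here.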

Additional observations from a re-analysis of the deposited data

How the results depend on the processing

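No calcium handling gene was called by edgeR, DESeq2 or limma-voom, under any scaling, filter or gene set tried, or with any library left out. The fitted values near 0 changed sign. Slc8a1 was 0.019 with DESeq2 size factors, 0.15 with library totals, 0.0098 without mitochondrial genes, 0.028 with DESeq2, 0.14 without the filter and 0.0080 with counts scaled from TPM. Atp2a2 was 0.086 with library totals and 0.020 without the filter. Casq2 was 0.11 with library totals, 0.088 without the filter and 0.0093 with counts scaled from TPM. The number of calcium handling genes with lower values was 5 with library totals and 5 without the filter, and the median of the wider list was 0.13, 0.075 and 0.035 with library totals, without the filter and with counts scaled from TPM. DESeq2 called 289 genes in all and 2 of the wider list, and edgeR without the filter called 1206 and 3. The share of Atp2a2-202 differed by −0.90 percentage points in estimated counts. The cause of these changes was not tested. Of the member transcripts, 6 had an unadjusted p under 0.05 with limma-voom.

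Leaving out each library gave 0 to 2 called genes in all (2 without DMSO replicate 1), 5 to 8 calcium handling genes lower (5 without DMSO replicate 3) with medians from −0.51 to −0.09, a median of the wider list from −0.090 to 0.12 (above 0 without LGK-974 replicate 3 and without DMSO replicate 3) and 0 to 7 member transcripts at an unadjusted p under 0.05 (0 without LGK-974 replicate 1, 7 without replicate 2, 1 without replicate 3). Fold changes ranged from −0.19 to 0.086 for Atp2a2, −0.20 to 0.16 for Casq2 and −0.11 to 0.22 for Slc8a1. Relative to cardiomyocyte markers the ranges were −0.10 to 0.040 for Ryr2, −0.069 to 0.32 for Atp2a2, −0.19 to 0.082 for Cacna1c and −0.17 to 0.078 for Trdn, and for Jph2 0.36 to 0.74. Ratios ranged from 0.32 to 0.82 for Jph2 to Ryr2, −0.11 to 0.42 for Slc8a1 to Atp2a2, −0.11 to 0.10 for Trdn to Ryr2 and −0.087 to 0.086 for Cacna1c to Ryr2. Leading shares ranged from −1.15 to 2.13 points for Ryr2, −4.05 to 7.31 for Atp2a2, −0.89 to 2.94 for Cacna1c, −0.27 to 0.054 for Hrc and −0.38 to 3.04 for Jph2.

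The labels do not state whether the replicate numbers pair the libraries. Deviations of libraries with the same number correlated at 0.487, −0.062 and 0.315, and those with different numbers at −0.51 to 0.16. These values cannot settle whether the libraries were paired. With the replicate block edgeR called 0 genes. It found 3312 genes at an unadjusted p under 0.05, against 2699 without the block. The lowest edgeR adjusted p was 0.053 with the block and 0.368 without it. With the block, the median of the calcium handling genes was −0.37 with 8 lower, and 1 member transcript had an unadjusted p under 0.05. The 2 planned ratios with Sln and its fold change were not computed, because its count was 0 in 3 libraries.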
